A study of Homo sapiens with 2 samples.

Results

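DMD, TTN, NEB, RYR1 and RYR2 are very long genes whose products serve muscle contraction, and they were examined here as places where LSD2 was or was not detected on the chromatin of a liver cell line. LSD2 chromatin immunoprecipitation followed by sequencing (ChIP-seq) in HepG2, a human liver cancer line with abnormal chromosome numbers, gave 1 LSD2 ChIP library and 1 input library of sonicated, non-precipitated chromatin. The antibody was a rabbit polyclonal raised against recombinant human LSD2, and the cells were unperturbed, in medium with 25 mM glucose and 10% serum. The authors deposited the regions in which LSD2 ChIP exceeded input, called peaks here. Peaks belonged to a gene when their midpoint lay within its fixed hg19 interval, and 361 of the 370863 distinct peaks did so. DMD held 156 of them, RYR2 held 92, TTN and NEB held 53 each and RYR1 held 7. A deposited peak has a position and a width but no height or p-value, and the depth of the libraries is unknown here. Reads came from Ion PGM and Ion Proton instruments, and the runs of the libraries differ in date, so run and library cannot be told apart. With 1 library per group no difference can be set against replicate error, so no test was made. Intervals below are 95% intervals that cover counting error only, and they are too narrow where neighbouring peaks depend on each other. Fewer LSD2 molecules at a place, fewer copies of that DNA and poorer mapping of reads cannot be told apart from peak positions, and copy number and mappability were not measured.

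LSD2, the product of KDM1B, is a flavin-dependent enzyme that removes methyl groups from histone H3, and it has been described on the bodies of transcribed genes. The members encode proteins of striated muscle. Dystrophin (DMD) links the cytoskeleton to the membrane complex that anchors the fibre, titin (TTN) is the elastic filament that spans from the edge to the middle of the sarcomere, and nebulin (NEB) runs along the thin filament of skeletal muscle. RYR1 and RYR2 are the calcium release channels of the sarcoplasmic reticulum, RYR1 in skeletal muscle and RYR2 in the heart. Hepatocytes are not known to rely on these proteins, although a short dystrophin is made from an internal start near the far end of DMD in many tissues other than muscle. Expression was not measured in these data, so the label of silence in hepatocytes was not tested.

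The genes lay on 4 chromosomes and differed widely in length. In hg19, DMD spanned chrX:31137345-33357726 (2220 kb), TTN chr2:179390716-179672150 (281 kb) and NEB chr2:152341850-152591001 (249 kb), all transcribed from the minus strand. RYR1 spanned chr19:38924340-39078204 (154 kb) and RYR2 spanned chr1:237205702-237997288 (792 kb), both on the plus strand. The annotated start end is the end at higher coordinates for DMD, TTN and NEB and at lower coordinates for RYR1 and RYR2. Exons and introns are not given here, because the gene table at hand is on another assembly than the peaks.

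Distance from the start end to the nearest peak ran from under 100 bp in NEB to nearly 7 kb in RYR2, and the sequences before these starts are shown because they are the extremes of that range. In NEB a peak of 235 bp, chr2:152590681-152590915 (hg19), ended 86 bp inside the start end, and 7.39% of the searched bases of chromosome 2 lay as close to a peak. In RYR2 the nearest peak, chr1:237198734-237198878 of 145 bp, lay 6824 bp before the start end, a distance within which 76.3% of the searched bases of chromosome 1 have a peak. Below are the 250 bases before the RefSeq start on GRCh38.p14, 5′ to 3′, with each CG dinucleotide in capitals. The NEB stretch is chr2:151734477-151734726 (minus strand) and the RYR2 stretch is chr1:237041934-237042183 (plus strand). They were not placed on the hg19 peaks.
NEB: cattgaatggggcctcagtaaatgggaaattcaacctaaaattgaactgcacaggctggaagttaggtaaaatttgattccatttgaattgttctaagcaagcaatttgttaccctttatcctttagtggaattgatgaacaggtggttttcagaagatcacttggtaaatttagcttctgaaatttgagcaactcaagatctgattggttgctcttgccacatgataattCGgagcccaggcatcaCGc
RYR2: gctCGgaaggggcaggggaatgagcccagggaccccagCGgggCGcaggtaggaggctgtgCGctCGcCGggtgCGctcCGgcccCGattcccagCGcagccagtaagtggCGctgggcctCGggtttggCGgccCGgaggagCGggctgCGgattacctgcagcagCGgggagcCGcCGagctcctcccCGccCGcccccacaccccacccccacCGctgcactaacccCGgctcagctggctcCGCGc
CG, which reads the same on both strands, occurred 2 times before NEB and 25 times before RYR2. Of 35116 RefSeq promoter entries cut to the same length, 85.3% hold at least as many as NEB and 21.6% at least as many as RYR2. The corresponding stretch held 0 CG for TTN and 12 for RYR1. For DMD the most upstream of 7 entries held 8. The median entry held 11.

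At the other starts the nearest peak lay 932 bp outside RYR1 (207 bp wide), 1931 bp inside DMD (154 bp) and 3930 bp outside TTN (492 bp). The share of the searched chromosome that is as close to a peak was 16.5% for RYR1, 22.1% for DMD and 72.5% for TTN. At the far ends the distances were 209 bp for DMD, 683 bp for RYR2, 847 bp for TTN, 1991 bp for NEB and 3812 bp for RYR1. The corresponding shares were 3.96%, 18.0%, 29.1%, 51.1% and 46.7%. The peak nearest the far end lay inside every gene except RYR1.

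None of the members was free of LSD2 peaks. With the 5 genes pooled, the density was close to that of their chromosomes and below that of the 1 Mb on each side. The genes together had 97.7 peaks per Mb over 3.70 Mb. At the densities of their own chromosomes the same lengths would hold 349 peaks, against 361 found (ratio 1.04). At the densities of the 1 Mb on each side they would hold 475 (ratio 0.760). These pooled ratios have no interval and no background share. DMD, with 2.22 of the 3.70 Mb, weighs most in them, and its own ratio was 0.918 with flanks of 2 Mb. All 5 genes had fewer peaks per Mb than their 2 flanks combined. The interval of the ratio lay below 1 for DMD and RYR1, which are 2 of the 5, and held 1 for TTN, NEB and RYR2. The share of windows with an interval below 1 was not counted, so these 2 have no background share. Against the own chromosome, the interval held 1 for each of the 5 genes. Over the whole genome, 49.3% of windows of the length of DMD, 55.2% of that of TTN, 55.5% of that of NEB, 56.6% of that of RYR1 and 53.2% of that of RYR2 were also below their flanks. The count of 5 depended on the settings, with 3 genes below their flanks when every deposited line was counted and 4 with flanks of 2 Mb, with the flank on either side alone or with flanks that began 100 kb from the gene. No share of windows was counted at these other settings.

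**Figure D1:**
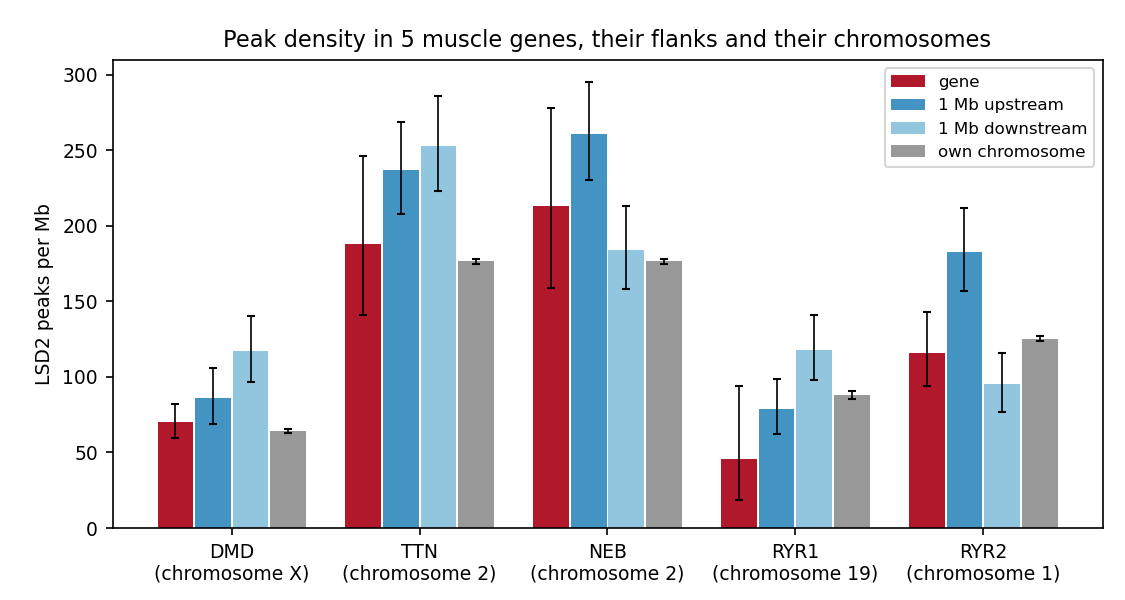
LSD2 peaks per Mb (vertical axis) in each gene, the 1 Mb upstream, the 1 Mb downstream and the own chromosome. Bars are the observed densities and error bars the 95% Poisson intervals of the counts. RYR1 had 45.5 peaks per Mb and NEB 213, the lowest and the highest of the genes.

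DMD had 70.3 peaks per Mb (59.7 to 82.2), against 102 (88.0 to 116) in its flanks and 64.0 over chromosome X. Its ratio to the flanks was 0.692 (0.558 to 0.857), and its ratio to the chromosome was 1.10 (0.931 to 1.29). The flanks differed, with 86 peaks in the 1 Mb upstream and 117 in the 1 Mb downstream. The ratio was 0.918 with flanks of 2 Mb, with an interval of 0.752 to 1.12, which holds 1. Among windows of the length of DMD, 4.09% were lower than their flanks by 1.5-fold or more, a difference that DMD did not reach at 0.692. It passed this fold with flanks of 500 kb (0.611), with the downstream flank alone (0.600), with every line counted (0.663), among peaks at least as wide as the median of all peaks (0.604) and without peaks under 170 bp (0.583). The share of windows past the fold was not counted at these settings. On chromosome X, 49 of 65 windows of the length of DMD held fewer peaks than DMD.

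TTN had 188 peaks per Mb (141 to 246), against 245 (224 to 268) in its flanks and 177 over chromosome 2. The ratio to the flanks was 0.769 (0.568 to 1.02), short of 1.5-fold, which 13.4% of windows of its length passed downwards. Both flanks were denser than TTN, with 237 peaks upstream and 253 downstream in 1 Mb each. The direction depended on how repeated lines were treated, and the ratio was 1.32 (1.06 to 1.63) when every deposited line was counted. TTN lay near the middle of its chromosome, where 517 of 845 windows of its length held fewer peaks and 304 held more. Of its 2 full windows of 100 kb, chr2:179490716-179590715 held 23 peaks and chr2:179390716-179490715 held 18, against a median of 24.5 in the flanks.

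NEB was the densest member, with 213 peaks per Mb (159 to 278), against 222 (202 to 244) in its flanks. Its ratio to the flanks was 0.956 (0.705 to 1.27) and to chromosome 2 it was 1.20 (0.901 to 1.57). It stood below the upstream flank, at 261 peaks per Mb, and above the downstream flank, at 184. The ratio was above 1 with flanks of 2 Mb (1.08) and with flanks that began 100 kb away (1.06), so no direction was settled for NEB. The 100 kb adjoining its far end, chr2:152241850-152341849, held 50 peaks of 340 bp median width, the highest count among the 20 flank windows of 100 kb, which had a median of 17.5. The 2 full windows of 100 kb within NEB, chr2:152341850-152441849 and chr2:152441850-152541849, held 23 and 22 peaks. RefSeq on GRCh38.p14 lists RIF1, a gene for a regulator of DNA replication timing, as the protein-coding gene that overlaps NEB and reaches past that end. Of windows of the length of NEB, 14.5% were lower than their flanks by 1.5-fold or more, which NEB was not.

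The ryanodine receptor genes are paralogs with similar products and differed in density. RYR1 had 45.5 peaks per Mb (18.3 to 93.7), from 7 peaks, against 98.5 (85.2 to 113) in its flanks and 88.0 over chromosome 19. RYR2 had 116 (93.7 to 143), against 139 (123 to 156) in its flanks and 125 over chromosome 1. With each peak counted once and flanks of 1 Mb, RYR1 was the only member lower than its flanks by 1.5-fold or more, with a ratio of 0.462 (0.183 to 0.970), and no member was higher by that much. Among windows of the length of RYR1, 18.6% were lower than their flanks by 1.5-fold or more. The share of windows as low as 0.462 was not counted. For the length of RYR2 the share was 7.85%, and RYR2 did not reach the fold, at 0.836 (0.653 to 1.06). RYR1 stood at 0.391 times the density of RYR2 (0.153 to 0.839). After each was divided by the density of its own chromosome, the ratio was 0.557 (0.218 to 1.19), and its interval held 1. On chromosome 19, 37 of 360 windows of the length of RYR1 held fewer peaks and 21 held the same number. On chromosome 1, 110 of 281 windows of the length of RYR2 held fewer.

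RYR2 lay between unlike flanks. The 1 Mb upstream held 183 peaks of 214 bp median width, and the 1 Mb downstream held 95 of 163 bp. RYR2 was at 0.635 times the density of the upstream side (0.489 to 0.820) and at 1.22 times that of the downstream side (0.908 to 1.65). The 100 kb adjoining its start end held 6 peaks and the 100 kb adjoining its far end held 9. By gene order on GRCh38.p14 the protein-coding neighbours before RYR2 are MT1HL1, MTR (methionine synthase) and ACTN2 (an actinin of the sarcomere), and those after it are ZP4, CHRM3 and FMN2.

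**Figure D2:**
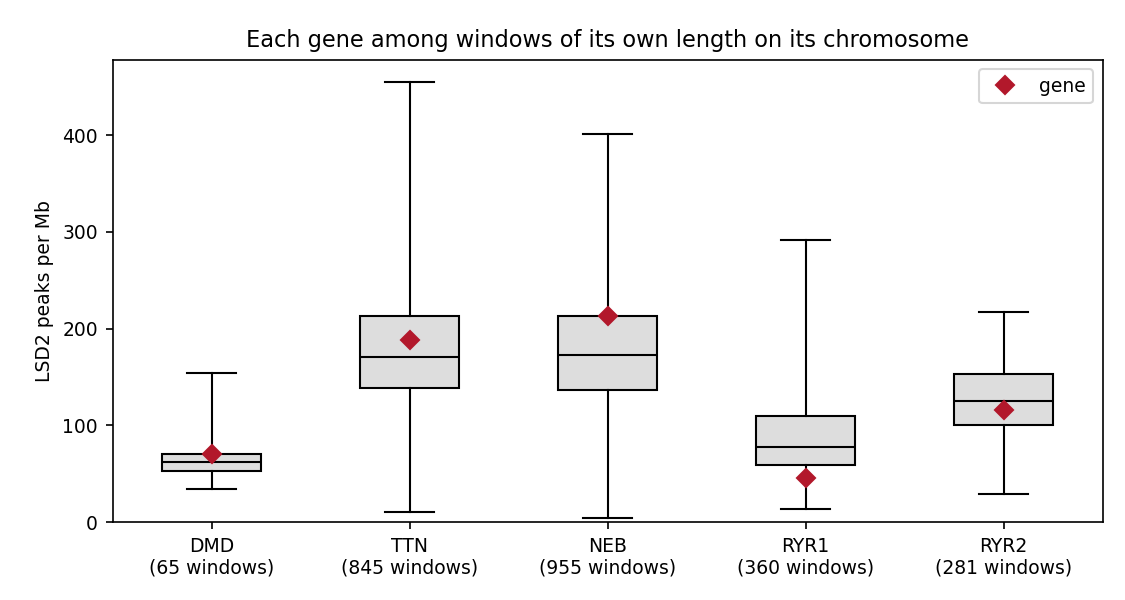
Peaks per Mb (vertical axis) of each gene (diamond) and of all non-overlapping windows of its own length on its own chromosome (box, quartiles with the median; whiskers, lowest and highest window). RYR1, at 45.5, lay below the lower quartile of 58.5, TTN and RYR2 lay within the quartiles, and DMD and NEB lay at the upper quartile, 69.8 and 213.

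Peaks inside the members were narrower at the median than those of the flanks in each of the 5 genes when identical lines were counted once, and in TTN the intervals of the medians did not overlap. When every deposited line was counted, NEB turned and had a median 11 bp wider than its flanks and 26.0 bp wider than chromosome 2. The median peak was 161 bp in TTN (150 to 172), against 212.5 bp in its flanks (193 to 237) and 187 bp over chromosome 2 (185 to 188). Peaks of 200 bp or more made up 26.4% of those in TTN (15.3% to 40.3%, exact binomial), against 52.2% in its flanks (47.7% to 56.7%). Counting only peaks at least as wide as the median of all peaks, 173 bp, TTN had 0.432 times the density of its flanks (0.253 to 0.695) and 0.657 times that of chromosome 2 (0.389 to 1.04). On chromosome 2, 65 of 844 windows of the length of TTN with at least 5 peaks had a lower median width (7.70%). The same share on the own chromosome was 11.2% for RYR1, 12.5% for RYR2, 13.8% for DMD and 52.8% for NEB. A low rank in width was thus not particular to TTN. The share of windows whose interval did not overlap that of their flanks was not counted. NEB, also on chromosome 2, had a median of 184 bp (166 to 223), against 204 bp in its flanks (186 to 228), and these intervals overlapped. The chromosome median of 187 bp lay within the interval of NEB.

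In RYR2 the median peak was 160.5 bp (157 to 177), against 172.5 bp in its flanks (165 to 206). In DMD it was 158 bp (157 to 162), against 161 bp (157 to 167), and in RYR1 it was 155 bp (141 to 407), against 165 bp (159 to 190). The median over the own chromosome was 170 bp for RYR2, 161 bp for DMD and 166 bp for RYR1. Each of these lay within the interval of the gene. The intervals of gene and flanks overlapped in DMD, NEB, RYR1 and RYR2 and not in TTN. Over the whole genome the median width was below that of the flanks in 47.9% of windows of the length of DMD, 52.6% for TTN, 52.0% for NEB, 51.8% for RYR1 and 51.0% for RYR2. The share of the gene covered by peaks followed density and width, at 1.39% in DMD, 3.76% in TTN, 4.87% in NEB, 0.932% in RYR1 and 2.47% in RYR2. The flanks were covered to 2.23%, 6.37%, 5.95%, 2.16% and 3.32% in the same order. The own chromosomes were covered to 1.33%, 4.38%, 4.38%, 1.96% and 2.89%. DMD and NEB were thus above their chromosome, and TTN, RYR1 and RYR2 were below it. Coverage in windows of the length of each gene was not counted.

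**Figure D3:**
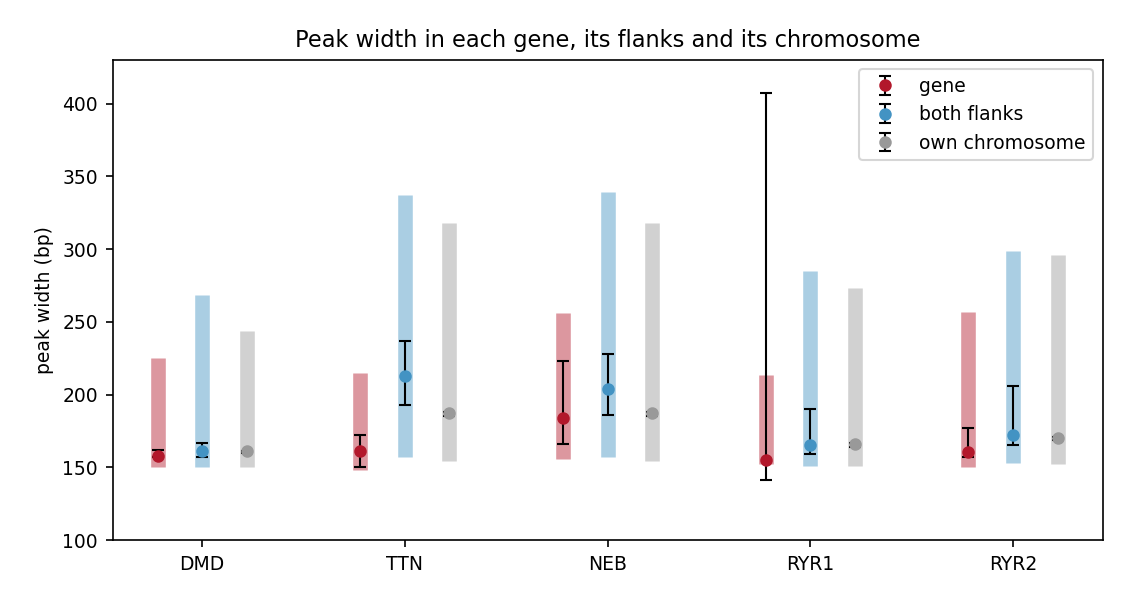
Peak width in bp (vertical axis, not starting at 0) in each gene, its flanks and its chromosome. Points are medians, thin bars their 95% intervals and thick bars the quartiles. The TTN median of 161 bp lay below the interval of its flanks, 193 to 237 bp.

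The widest peak of each member measured 407 to 630 bp. In the flanks, which held more peaks, the widest measured 635 to 1362 bp, and a maximum tends to rise with the number of peaks. The widest in the members was 630 bp in DMD, chrX:31189927-31190556. A second of 544 bp lay at chrX:33249426-33249969, 108 kb from the start end. In NEB the widest was 519 bp (chr2:152516974-152517492), in TTN 469 bp (chr2:179560817-179561285) and in RYR2 434 bp (chr1:237581020-237581453). The widest in RYR1 was 407 bp, chr19:38927038-38927444, and lay 2.90 kb inside the start end.

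Along the gene, DMD was densest at its far end. Its final 10%, a stretch of 222 kb at the lowest coordinates, held 32 peaks, or 144 per Mb, against 62.1 per Mb in the rest of the gene. The ratio was 2.32 (1.52 to 3.45), and it was chosen for description after the counts along the gene were seen. The same ratio was 1.60 (0.651 to 3.43) in TTN, 1.37 (0.522 to 3.05) in NEB and 1.10 (0.507 to 2.12) in RYR2. In RYR1 it was 0 (0 to 6.24). These intervals overlapped that of DMD. Median width was 158 bp on both sides of this division. The densest of 22 windows of 100 kb was the terminal one, chrX:31137345-31237344, with 19 peaks, and the sparsest was chrX:31537345-31637344, with 2, against a median of 6.5. Windows of 100 kb in the flanks of DMD had a median of 9.5 and reached 30 peaks. At 20 kb, a window size chosen after the counts were seen, the densest window was chrX:31277345-31297344, with 7 peaks, among them neighbours of 319 bp and 245 bp at chrX:31283661-31283979 and chrX:31284026-31284270. Windows of 20 kb in the flanks of DMD reached 13 peaks. The 100 kb directly beyond the far end held 1 peak, whereas the whole 1 Mb downstream held 117.

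The other genes varied less regularly. In 5 equal segments from the start end, TTN had 8, 8, 16, 6 and 15 peaks and NEB had 8, 14, 8, 12 and 11. RYR2 had 13, 21, 17, 18 and 23, so its lowest segment was the one at its start. Its intervals for the first and the last segment, 43.7 to 140 and 92.1 to 218 peaks per Mb, overlapped. In RYR2 the windows of 100 kb ran from 7 peaks, at chr1:237205702-237305701, to 14, at chr1:237305702-237405701, with a median of 11 over 7 windows.

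The 7 peaks of RYR1 fell in 2 groups around an empty middle. From the start end they measured 407, 264 and 155 bp, at chr19:38927038-38927444, chr19:38950670-38950933 and chr19:38966247-38966401. After a gap of 79.6 kb, chr19:38966402-39045952, came peaks of 163, 153, 141 and 151 bp, the last at chr19:39062278-39062428. The final 10% of the gene held none. Of 7 full windows of 20 kb in RYR1, 3 were empty, from chr19:38984340-39004339 onwards, against 12 of 100 in its flanks. The densest of the 7 windows, chr19:39044340-39064339, held 4.

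**Figure D4:**
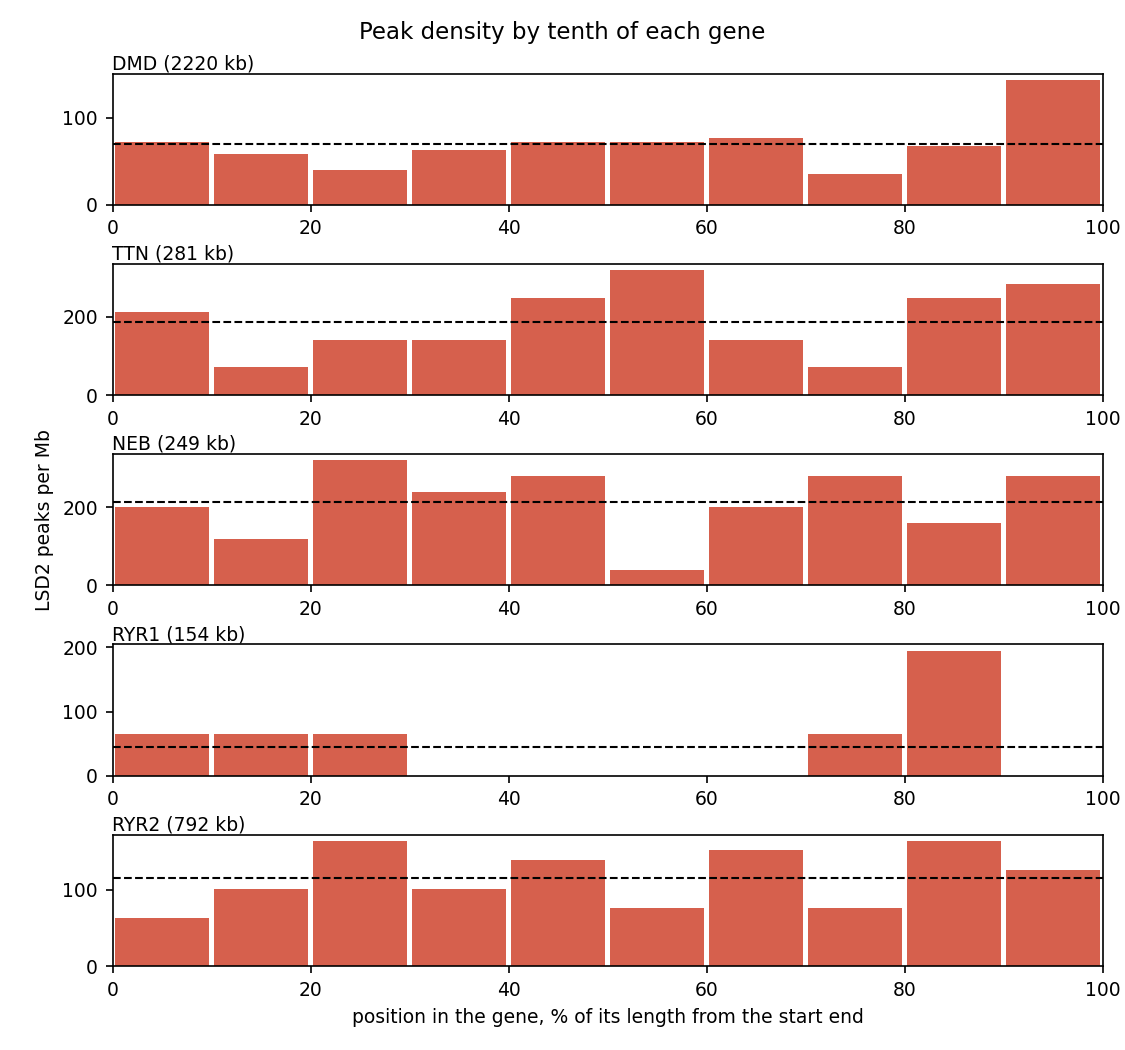
Peaks per Mb (vertical axis) in successive 10% segments of each gene, from the annotated start end (left) to the far end. The dashed line is the mean of the gene. The last segment of DMD reached 144 against a mean of 70.3 peaks per Mb.

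TTN differed from its surroundings in how often its peaks were listed. A peak can occur on more than 1 identical line of the deposited file, and such lines were counted once above. In TTN 47 of 53 peaks (88.7%, 77.0% to 95.7%) were listed more than once, against 9.39% in its flanks (6.96% to 12.3%) and 8.85% over chromosome 2. They formed an unbroken block, since all 47 peaks from chr2:179391563 to chr2:179629625 were repeated, 46 of them 2 times and 1 of them 3 times. The 6 peaks nearest the start end were listed once. Only 2 of 848 windows of the length of TTN on chromosome 2 had as high a share, which was 3.33% in the median window. The flanks of TTN were unlike, with 42 of 253 peaks repeated downstream (16.6%) and 4 of 237 upstream (1.69%).

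Repeated peaks also came in blocks in NEB and DMD. In NEB the 7 repeated peaks were the 7 nearest its far end, from chr2:152343841 to chr2:152362320, and the other 46 were listed once. The share in NEB was 13.2%, against 2.47% in its flanks and 8.85% over chromosome 2. On that chromosome, 188 of 956 windows of the length of NEB (19.7%) had as high a share. In DMD 22 of 156 peaks (14.1%) were repeated, against 12.3% in its flanks and 6.01% over chromosome X, and 19 of them were among the 32 of the final 10% of the gene. As high a share was found in 3 of 67 windows of the length of DMD on chromosome X (4.48%). The repeated flank peaks of DMD all lay downstream, 25 of 117 (21.4%), against 0 of 86 upstream. RYR1 had no repeated peak among 7 (up to 41.0% by the exact interval) and RYR2 none among 92 (up to 3.93%), against 25.4% and 11.2% of the peaks in their flanks. Windows without any repeat made up 11.5% of those of the length of RYR2 on chromosome 1 and 23.8% of those of the length of RYR1 on chromosome 19. Over all peaks the share was 10.1%. RefSeq on GRCh38.p14 lists genes that overlap every member, 8 in DMD, 5 in TTN, 2 in NEB, 1 in RYR1 and 2 in RYR2. The extents of these overlaps were not placed on the hg19 peaks. What makes a line repeat was not tested and is not stated in the sources used here.

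**Figure D5:**
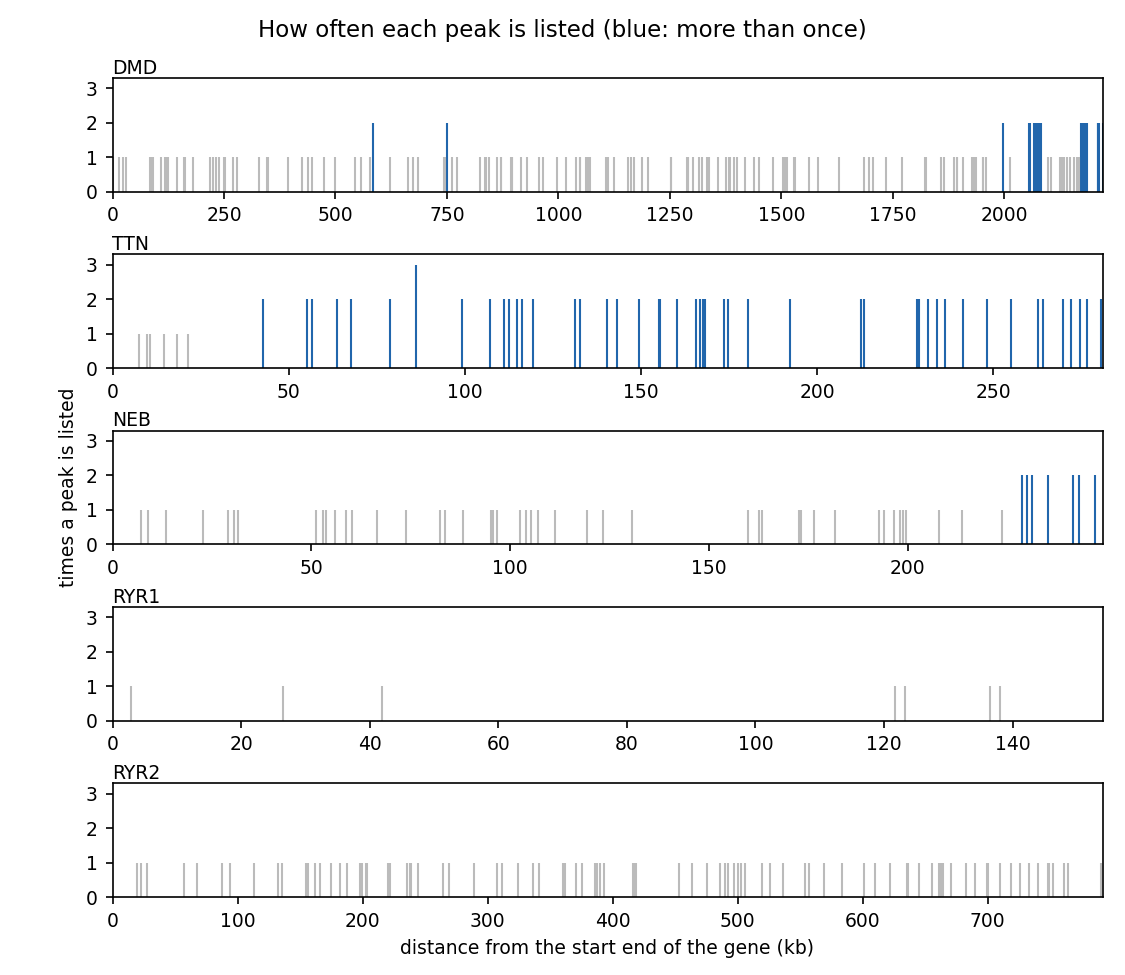
Number of times each peak is listed (vertical axis) against its distance in kb from the start end of the gene (horizontal axis), with peaks listed more than once in blue. The block in TTN held 47 peaks, and RYR1 and RYR2 had none.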

How the data were processed

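LSD2 ChIP and input from HepG2 cells, 1 library each, were grouped by source name. The submitters' processing notes name BWA and hg19. Per the file headers, the authors trimmed reads, removed duplicates and called peaks with MACS against input (read and fragment length 120 bp, effective genome size 2700 Mb, p-value cutoff 1e-05, enrichment factor 32, local biases detected). Versions of BWA and MACS were not given in the sources used here. A fixed cutoff calls more and wider peaks where more reads fall. The deposited values are peak starts and ends in bases.

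Identical lines among the 414095 were counted once and starts shifted to count from 1. Chromosome lengths ran from first to last peak without peak-free stretches over 500 kb. Ratios carry exact conditional binomial intervals, densities Poisson intervals and medians order-statistic intervals. Windows of each gene's length tiled the genome without overlap, and those used against flanks had 1 Mb of searched sequence on both sides. Density ratios, their intervals and the ratios of windows to flanks were tested on simulated peaks placed independently of each other. Widths, repeats, spacing and distances to gene ends were not tested in this way. The software was Python 3.11.15, pandas 2.3.3, numpy 2.4.6 and scipy 1.17.1. Strand, neighbours and promoters came from RefSeq tables on GRCh38.p14, which matched all 5 genes. Members, lists and rules were chosen with earlier results of these data known. The text names all 5 genes and, in each, the widest peak, the densest and sparsest windows, the longest gap and the peaks nearest each end. Related muscle genes were not placed, since no hg19 annotation was used here.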

Additional observations from a re-analysis of the deposited data

How the results depend on the processing

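Of 134 values under alternatives, 110 stayed within the counting interval of the reported value (a count of genes, within 1.5 times) and 15 changed direction. Counting every line gave TTN 1.32 times its flanks and 1.84 times chromosome 2, width differences from the flanks of -5.5 bp in DMD and -16.5 bp in RYR2, against 11 bp in NEB (26.0 bp from chromosome 2), and 2 genes past 1.5-fold in place of 1. Peaks at least as wide as the median gave TTN 0.432 times its flanks and 0.657 times chromosome 2, with 3 genes past 1.5-fold, and leaving out peaks under 170 bp gave TTN 0.449. The lower of the planned folds also gave 3 genes. The share of all windows past the fold was not counted at these settings, so these counts of 2 and 3 genes have no background. DMD was at 0.918 with flanks of 2 Mb. RYR2 was at 0.635 against lower coordinates only and 1.22 against higher ones. Mean widths differed from the flanks by -21.6 bp in DMD, -38.5 bp in NEB and -26.3 bp in RYR2, and from the chromosome by -10.2 bp in DMD, -47.8 bp in TTN and -18.5 bp in RYR2. Flanks of 500 kb gave median differences of -8.0 bp in DMD, -63.0 bp in TTN and -46.5 bp in RYR2. The end segment of 10% was at 2.05 times the mean in DMD and 0 in RYR1. The cause of these changes was not tested. Flanks beginning 100 kb away were chosen after seeing the data. No paired analysis was possible because the ChIP and the input were single libraries. The unknown depth means that a stretch without LSD2 and a stretch with too few reads look alike, and RYR1 rests on 7 peaks.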

Other observations

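Peaks of the members were spaced more widely than those of their flanks. The median gap between successive peaks was 8795 bp in DMD, against 4724 bp in its flanks, and 6612 bp in RYR2, against 3390 bp. It was 3606 bp in TTN, against 2559 bp, and 3264 bp in NEB, against 2382 bp. In RYR1 it was 14252 bp over 6 gaps, against 6020 bp. Over their chromosomes the median gap was 8924 bp on X, 3216 bp on 2, 6458 bp on 19 and 4372 bp on 1.

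Gaps under 1 kb made up 7.74% of those in DMD, against 18.4% in its flanks. The shares were 15.4% in TTN against 26.6%, 17.3% in NEB against 27.5% and 14.3% in RYR2 against 26.8%. RYR1 had none among 6, against 10.8%. Over the chromosomes the shares were 9.52% on X, 21.3% on 2, 12.9% on 19 and 17.1% on 1. Spacing in windows of the length of each gene was not counted. No more than 4 successive peaks lay within 2 kb of each other in TTN, NEB and RYR2, 3 in DMD and 2 in RYR1. The longest gap was 57.7 kb in DMD (chrX:32614318-32672013) and 34.7 kb in RYR2 (chr1:237624475-237659176). It was 20.9 kb in TTN (chr2:179629626-179650517), where it marks the limit between repeated and single lines, and 29.0 kb in NEB (chr2:152431196-152460163).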
